A study of Mus musculus with 6 samples.

Results

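The genes that make and break down glycogen were followed in mouse liver, as 8 genes named by symbol: the glycogen synthase gene Gys2, the branching enzyme gene Gbe1, the UDP-glucose pyrophosphorylase gene Ugp2, the liver phosphorylase gene Pygl, the phosphorylase kinase subunit gene Phka2, and Ppp1r3b, Ppp1r3c and Ppp1r3g, which encode glycogen-targeting subunits of protein phosphatase 1. They are 8 of the 15953 genes in the deposited table, and all 8 passed the filter on low counts, which kept 12033 genes. RNA sequencing had been done on 3 liver samples of Cgref1 knockout mice and 3 of wild type mice, all of the C57BL/6 strain. The labels also name hepatocytes as the cell type, they give each group's 3 samples as biological replicates, and they state no age, sex, feeding state or deletion position. Nothing in the labels says that the 3 samples of a group came from separate animals. The p-values therefore set the difference between the groups only against the scatter among these samples. Whether that scatter is the one between animals is not stated.

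Glycogen is the branched glucose store of the liver. It is built from UDP-glucose, which UDP-glucose pyrophosphorylase makes, by glycogen synthase, which lengthens chains, and by the branching enzyme, which adds branch points. It is broken down by phosphorylase, which phosphorylase kinase switches on. Protein phosphatase 1, held on the glycogen particle by its targeting subunits, activates the synthase and inactivates phosphorylase. Transcript levels report on none of these activity switches.

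Library totals were 17627734 to 18366443 estimated counts. Cgref1 had 7, 12 and 10 counts in knockout-labelled replicates 1, 2 and 3 and 7, 7 and 19 counts in wild type replicates 1, 2 and 3. With the gene kept in the fit its log2 fold change was -0.11 (95% confidence interval -1.23 to 1.01; edgeR adjusted p 0.994), so these counts show no lower transcript level, and the knockout libraries are named here by their label. Of 10 hepatocyte markers 9 were in the table, and they summed to 81942 to 104492 CPM (counts scaled by library size) in knockout-labelled and 79961 to 110673 CPM in wild type libraries. Most of this was Alb, with 50720 to 69490 CPM in knockout-labelled and 51050 to 80700 CPM in wild type libraries. Ahsg, Apoa1 and Serpina1a were higher in every knockout-labelled library than in any wild type one, as were 6.19% of the genes tested. The ranges of Alb, Ttr, Cps1, Hnf4a, Fgb and Apob overlapped. Of 13 intestinal markers in the table, the 12 other than Fabp2 had summed counts of 9, 13 and 10 in the knockout-labelled replicates, against 183, 15 and 374 in the wild type ones. Kupffer cell markers (10 of 10 in the table) summed to 354 to 382 CPM in knockout-labelled and 283 to 313 CPM in wild type libraries, and stellate cell markers (8 of 8) to 216 to 261 CPM in knockout-labelled and 259 to 344 CPM in wild type libraries. Skeletal muscle, which uses other glycogen isoenzymes, was near 0, with 7 of 9 markers in the table summing to 1.05 to 1.28 CPM in knockout-labelled and 1.25 to 2.15 CPM in wild type libraries. The part of these markers in the results was not tested, apart from the fits without wild type replicates 1 and 3.

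The promoters of 6 of the 8 genes were matched in RefSeq by symbol, as 7 windows of 300 bases from 250 before to 50 after a transcription start (GRCm38). Those of Gys2 and Ppp1r3b were not used here. The windows of Ppp1r3c and Ppp1r3g are shown because these genes differed most between libraries among those matched, and the windows of Gbe1 and Pygl because they belong to the branching and breakdown enzymes. Capitals mark every match, on either strand, to 7 motifs: the E-box CACGTG, the hypoxia-response core ACGTG (contained in the E-box), the cAMP-response element TGACGTCA and its half-site TGACG, the FOXO site GTAAACA, the TATA box TATAAA and the CCAAT box.
Ppp1r3c (chr19:36736555-36736854, minus strand): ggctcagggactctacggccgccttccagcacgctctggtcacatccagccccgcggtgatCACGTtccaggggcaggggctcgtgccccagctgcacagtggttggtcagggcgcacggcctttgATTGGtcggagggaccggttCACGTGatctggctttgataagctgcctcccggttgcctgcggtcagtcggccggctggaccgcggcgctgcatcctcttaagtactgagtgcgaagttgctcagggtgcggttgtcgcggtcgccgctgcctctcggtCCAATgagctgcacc
Ppp1r3g (chr13:35967656-35967955, plus strand): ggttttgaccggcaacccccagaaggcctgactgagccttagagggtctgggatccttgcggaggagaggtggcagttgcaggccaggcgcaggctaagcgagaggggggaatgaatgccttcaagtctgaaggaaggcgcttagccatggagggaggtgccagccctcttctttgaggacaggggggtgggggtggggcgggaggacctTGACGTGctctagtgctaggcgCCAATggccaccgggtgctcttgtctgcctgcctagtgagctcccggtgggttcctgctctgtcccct
Gbe1 (chr16:70313699-70313998, plus strand): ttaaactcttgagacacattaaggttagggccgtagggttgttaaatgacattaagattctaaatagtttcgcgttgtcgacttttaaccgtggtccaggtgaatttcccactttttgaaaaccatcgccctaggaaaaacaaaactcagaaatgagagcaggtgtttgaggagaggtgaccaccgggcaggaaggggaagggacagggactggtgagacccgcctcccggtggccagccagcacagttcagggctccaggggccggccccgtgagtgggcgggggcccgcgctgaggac
Pygl (chr12:70227634-70227933, minus strand): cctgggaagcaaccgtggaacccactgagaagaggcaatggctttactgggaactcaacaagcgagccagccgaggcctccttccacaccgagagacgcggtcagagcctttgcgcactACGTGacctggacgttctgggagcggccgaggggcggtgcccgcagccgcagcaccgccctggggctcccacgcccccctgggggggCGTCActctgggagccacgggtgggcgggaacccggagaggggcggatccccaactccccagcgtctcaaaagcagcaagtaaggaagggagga

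The Ppp1r3c window held an E-box with its first base 104 bases before the start, a further ACGTG on the opposite strand 189 bases before it, and CCAAT boxes at -124 (opposite strand) and at 36 bases into the transcript. In the Ppp1r3g window a TGACG at -40 overlapped an ACGTG at -38, and a CCAAT box lay at -18. The windows of Ppp1r3g and Gbe1 lie inside the intervals that the table gives for these genes. The Pygl window had an ACGTG at -131 and a TGACG on the opposite strand at -44. None of the 7 motifs was in the Gbe1 window (0 matches), which says only that these letters are not in this stretch. Among 32851 RefSeq promoter windows of the same length, 7.15% held CACGTG, 19.6% ACGTG, 20.8% TGACG and 37.4% CCAAT, so single matches of the shorter motifs are frequent, and a match is not a binding site.

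Levels set between genes are given as TPM, which corrects for transcript length, over all 6 libraries. Ugp2 was the most abundant of the 8 genes, with a mean of 245 TPM (193 to 297), followed by Pygl with 197 TPM (163 to 234) and Gys2 with 168 TPM (124 to 201). Gbe1 had 79.0 TPM (62.5 to 92.8) and Ppp1r3b 61.2 TPM (24.4 to 156). Below them came Ppp1r3c with 16.02 TPM (7.89 to 31.1), Phka2 with 8.38 TPM (6.89 to 10.1) and Ppp1r3g with 1.34 TPM (0.33 to 3.54). Of the 7 neighbouring pairs in this order, Gys2 and Gbe1, and Phka2 and Ppp1r3g, had ranges that did not overlap. Ugp2 exceeded Pygl in 6 of 6 libraries although their ranges overlapped. Pygl exceeded Gys2 in 4 of 6 libraries, and Gbe1 exceeded Ppp1r3b in 4 of 6. The pairs Ppp1r3b and Ppp1r3c, and Ppp1r3c and Phka2, kept their order in 5 of 6. The order of these neighbours was thus not the same in every library. Pygl had 234, 203 and 210 TPM and Gys2 124, 178 and 164 TPM in wild type replicates 1, 2 and 3. In knockout-labelled replicates 1, 2 and 3 Pygl had 182, 163 and 187 TPM and Gys2 201, 172 and 167 TPM.

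**Figure D1:**
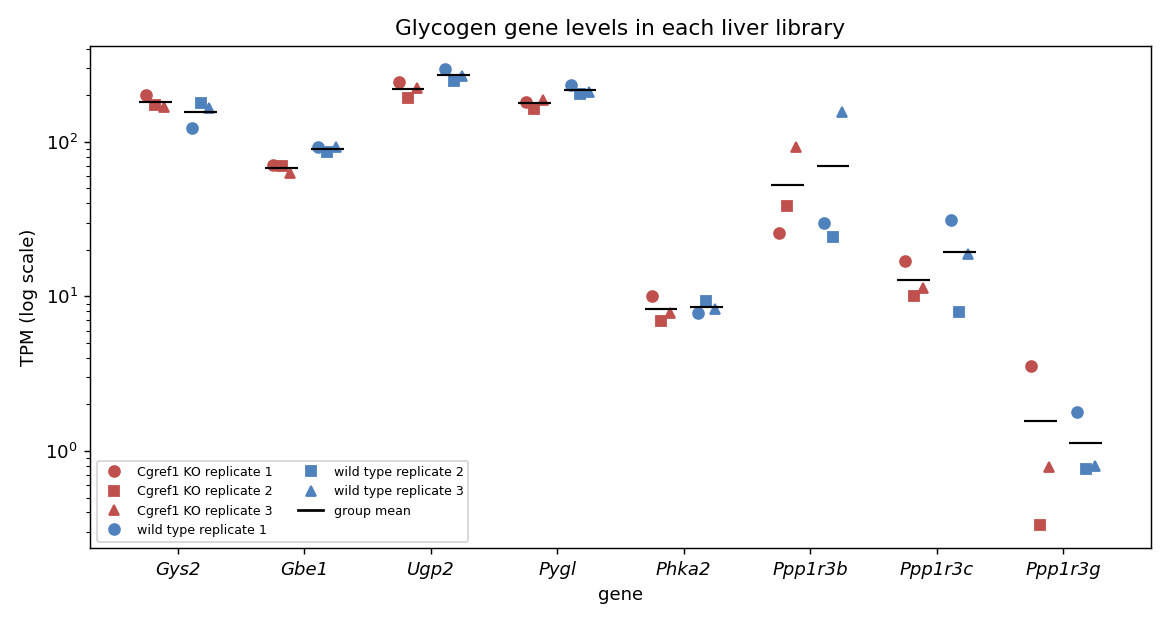
TPM (log scale) of the 8 glycogen genes in the 3 Cgref1 knockout-labelled and 3 wild type liver libraries, 1 point per library, with marker shapes for replicate numbers and a line at each group's arithmetic mean. The enzyme genes and Phka2 vary less within a group than the targeting-subunit genes do. Over all libraries Ppp1r3b spans 24.4 to 156 TPM, Ppp1r3c 7.89 to 31.1 TPM and Ppp1r3g 0.33 to 3.54 TPM.

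The comparison asked whether these genes differed in level between Cgref1 knockout and wild type liver. On the CPM scale Gys2 was higher and Gbe1 lower in every knockout-labelled library than in any wild type one, and neither passed the threshold. After Benjamini-Hochberg adjustment over all genes tested, the quasi-likelihood test of edgeR called 0 of the 8 genes at an adjusted p of 0.05, where 0.00831% of the tested genes (1 of 12033) were called. DESeq2 and limma-voom also called 0 of the 8. At an unadjusted p under 0.05 there were 2 of 8, Gys2 and Gbe1, against 5.15% of the genes tested. The log2 fold changes were positive for 3 and negative for 5 of the 8, with a median of -0.16, where 50.5% of the tested genes were negative and the median was -0.00216. The median of the 8 was 0.06 without wild type replicates 1 and 3 and 0.000627 without wild type replicate 1, so its sign rested on those libraries.

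**Figure D2:**
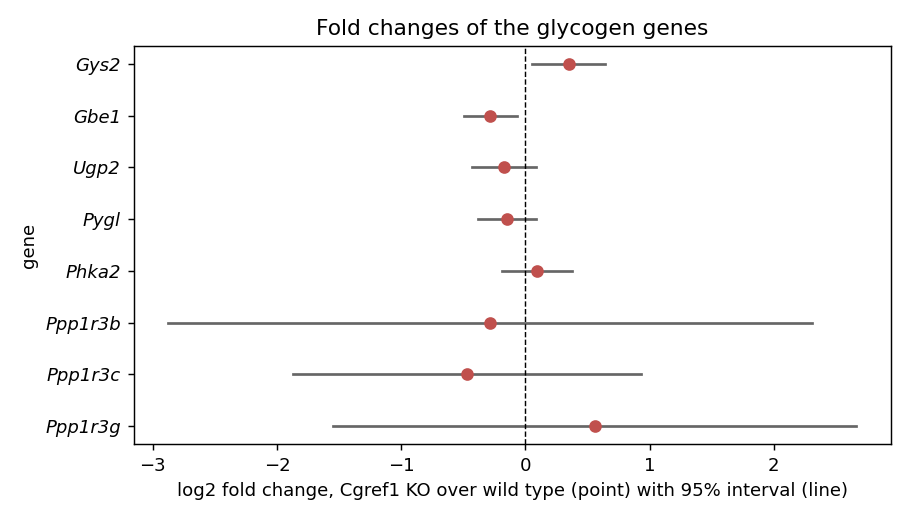
log2 fold change of each glycogen gene, Cgref1 knockout-labelled over wild type libraries (points, edgeR), with 95% confidence intervals (lines), 3 libraries per group. The intervals of Gys2 and Gbe1 lie on one side of 0 before adjustment over all genes, and those of Ppp1r3b, Ppp1r3c and Ppp1r3g are several times wider than those of the enzymes.

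Glycogen synthase, the chain-lengthening enzyme, is encoded in liver by Gys2 (chromosome 6, 142422612 to 142473130, minus strand, GRCm38). Gys2 stood at 371, 345 and 322 CPM in knockout-labelled replicates 1, 2 and 3, against 221, 309.8 and 284 CPM in wild type replicates 1, 2 and 3. Every knockout-labelled value lay above every wild type value on this scale, and wild type replicate 1 was the lowest of the 6. Such a complete separation upward was seen for 6.19% of the genes tested. The means were 346 ± 24.6 CPM in knockout-labelled and 272 ± 45.7 CPM in wild type libraries (SD, n = 3 each), a 1.27-fold difference (log2 fold change 0.35, SE 0.13, 95% confidence interval 0.05 to 0.64, edgeR unadjusted p 0.0261 and adjusted p 0.925). In liver tissue a difference in the number of cells of a type and in the RNA per cell cannot be told apart. The log2 fold change was 0.21 without wild type replicate 1, 0.15 without wild type replicates 1 and 3, and 0.22 on log2(TPM + 1), where the ranges of Gys2 overlapped.

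Branch points are added by the product of Gbe1 (chromosome 16, 70312876 to 70569720, plus strand). Gbe1 had 149, 159.6 and 137 CPM in knockout-labelled replicates 1, 2 and 3 and 189, 170.4 and 183 CPM in wild type replicates 1, 2 and 3. All knockout-labelled values were below all wild type values, a separation downward that 4.63% of the tested genes shared. The means were 149 ± 11.1 CPM and 181 ± 9.45 CPM in knockout-labelled and wild type libraries (SD, n = 3 each), a ratio of 0.823 (log2 fold change -0.28, SE 0.10, 95% confidence interval -0.50 to -0.07, edgeR unadjusted p 0.0161 and adjusted p 0.903). By its unadjusted p Gbe1 ranked 211 of 12033 genes and Gys2 ranked 339. The authors' deposited table gives a log2 fold change of -0.29 with a q-value of 0.892 for Gbe1 and of 0.34 with a q-value of 0.999 for Gys2.

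Ugp2 makes UDP-glucose, the sugar donor of the synthase (chromosome 11, 21321126 to 21374162). Its values were 486, 416 and 461 CPM in knockout-labelled replicates 1, 2 and 3 and 574, 465 and 498 CPM in wild type replicates 1, 2 and 3. The groups overlapped, because knockout-labelled replicate 1 lay above wild type replicate 2. The log2 fold change was -0.17 (SE 0.11, 95% confidence interval -0.43 to 0.08) and edgeR's adjusted p 0.984. The table places the gene on the plus strand and RefSeq on the minus strand, and 78 exon bases are shared with Gm12043 on the opposite strand; no source used here says whether the counting used strand, so reads of the 2 genes cannot be told apart there.

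Phosphorylase, which releases glucose 1-phosphate from glycogen, is encoded in liver by Pygl (chromosome 12, 70190815 to 70227683, minus strand). Pygl stood at 361, 352 and 387 CPM in knockout-labelled replicates 1, 2 and 3 and at 450.4, 379 and 391 CPM in wild type replicates 1, 2 and 3. Wild type replicate 1 was the highest library and knockout-labelled replicate 3 lay above wild type replicate 2. The log2 fold change was -0.15 (SE 0.10, 95% confidence interval -0.38 to 0.08, edgeR adjusted p 0.984). On the TPM scale Gbe1, Ugp2 and Pygl were each lower in all 3 knockout-labelled libraries than in any wild type library, as were 15.3% of the tested genes, and there the median log2 fold change of all genes was -0.11 with a pseudocount of 1. None of the 8 (0) was higher in all 3 on that scale, as 1.44% of the tested genes were. The log2 fold changes on log2(TPM + 1) were -0.28 for Pygl and -0.30 for Ugp2, and without wild type replicate 1 those on the count scale were -0.08 for Pygl and -0.09 for Ugp2.

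Phka2 encodes the liver alpha subunit of phosphorylase kinase, the enzyme that activates phosphorylase (chromosome X, 160502155 to 160640721, plus strand). It had 24.8, 20.5 and 19.7 CPM in knockout-labelled and 20.1, 21.9 and 18.8 CPM in wild type replicates 1, 2 and 3, and the ranges overlapped. Its log2 fold change of 0.09 (SE 0.13, 95% confidence interval -0.19 to 0.38, edgeR adjusted p 0.988) turned to -0.05 on log2(TPM + 1) and to -0.02 without knockout-labelled replicate 1. Phka2 shares 115 exon bases with the antisense gene Gm15243.

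The targeting-subunit genes had the widest spread between libraries of a group among the 8 genes. Ppp1r3b, which encodes the liver glycogen-targeting subunit GL (chromosome 8, 35375667 to 35390398, plus strand), had 80.3, 129.7 and 301 CPM in knockout-labelled replicates 1, 2 and 3 and 90.7, 72.0 and 459.9 CPM in wild type replicates 1, 2 and 3. The third replicate was the highest of each group, and the other 4 libraries lay between 72.0 and 129.7 CPM. Within wild type the TPM values spanned 6.40-fold, and within the knockout-labelled group 3.62-fold. The pooled SD within groups was 1.24 on the log2 CPM scale, wider than that of 99.5% of the genes tested, while counting error alone gave a coefficient of variation of 1.71%. With such spread the log2 fold change of -0.28 had an SE of 0.98 and a 95% confidence interval of -2.88 to 2.31 (edgeR adjusted p 0.994). Leaving out a library gave 1.07 (wild type replicate 3), 0.06 (knockout-labelled replicate 1) and -0.98 (knockout-labelled replicate 3). A fit with a block for replicate number, which the labels do not state to pair samples, gave 0.01 with an SE of 0.35.

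Ppp1r3c encodes the subunit also known as protein targeting to glycogen (chromosome 19, 36731731 to 36736604, minus strand). Its values were 31.9, 20.6 and 22.0 CPM in knockout-labelled replicates 1, 2 and 3 and 56.5, 13.9 and 33.0 CPM in wild type replicates 1, 2 and 3. Wild type libraries held both the highest and the lowest value, and the knockout-labelled values lay between them. The log2 fold change was -0.47 (SE 0.54, 95% confidence interval -1.87 to 0.93, edgeR adjusted p 0.988). It came to 0.08 when wild type replicate 1 was left out, and to -0.32 (SE 0.31) with a block for replicate number. The pooled SD within groups, 0.76 on the log2 CPM scale, exceeded that of 97.4% of the tested genes.

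Ppp1r3g encodes a further glycogen-targeting subunit (chromosome 13, 35958799 to 35970388, plus strand) and had the fewest counts of the 8 genes, 89, 9 and 22 in knockout-labelled and 46, 20 and 20 in wild type replicates 1, 2 and 3. These are 5.19, 0.523 and 1.21 CPM in knockout-labelled and 2.54, 1.06 and 1.09 CPM in wild type libraries. Replicate 1 was the highest of each group, and the knockout-labelled group held both the highest and the lowest library, 10.7-fold apart in TPM. Counting error gave a coefficient of variation of 17.1% at this depth, and the pooled SD within groups was 1.24 on the log2 CPM scale. The log2 fold change was 0.56 (SE 0.86, 95% confidence interval -1.55 to 2.66, edgeR adjusted p 0.989). It came to -0.83 when knockout-labelled replicate 1 was left out, and to 0.31 (SE 0.37) with a block for replicate number.

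By contrast the 5 genes of enzymes and of phosphorylase kinase varied less within groups than the targeting-subunit genes. Their pooled SD on the log2 CPM scale was 0.09 for Gbe1, 0.11 for Pygl, 0.14 for Ugp2, 0.15 for Phka2 and 0.19 for Gys2. Among the genes tested, 13.4% had a smaller pooled SD than Gbe1 and 51.4% a smaller one than Gys2.

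Ratios between 2 of these genes within a library do not depend on how libraries are scaled. The TPM ratio of Gys2 to Pygl, synthase over phosphorylase, was 1.10, 1.05 and 0.893 in knockout-labelled replicates 1, 2 and 3 and 0.528, 0.878 and 0.782 in wild type replicates 1, 2 and 3. It was higher in all 3 knockout-labelled libraries than in any wild type library, by a narrow margin between knockout-labelled replicate 3 and wild type replicate 2. The mean difference was 0.51 on the log2 scale, with SDs of 0.16 in knockout-labelled and 0.38 in wild type libraries (n = 3 each; two-sided exact permutation p 0.1, the smallest that 3 against 3 allows; 0.2 adjusted over 4 ratios). The TPM ratio of Gbe1 to Gys2, branching enzyme over synthase, was 0.353, 0.405 and 0.374 in knockout-labelled and 0.747, 0.482 and 0.564 in wild type replicates 1, 2 and 3. The groups did not overlap here either. On the CPM scale Gys2 was higher and Gbe1 lower in every knockout-labelled library, so this separation largely repeats those 2 and is not a further result. How often the ratios of other gene pairs separate in this way was not computed. The mean difference of this ratio was -0.64 on the log2 scale (SD 0.10 in knockout-labelled and 0.32 in wild type libraries, n = 3 each, exact permutation p 0.1, adjusted 0.2). Without wild type replicates 1 and 3 these differences were 0.21 and -0.36, and without wild type replicate 1 alone that of Gys2 to Pygl was 0.29.

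Ratios among the targeting subunits overlapped between the groups. The TPM ratio of Ppp1r3b to Ppp1r3c was 1.51, 3.79 and 8.27 in knockout-labelled and 0.962, 3.09 and 8.30 in wild type replicates 1, 2 and 3 (exact permutation p 0.8, n = 3 each). Its range within each group was much wider than the difference between the groups, which was 0.31 on the log2 scale and -0.48 without wild type replicate 1 or -0.28 without knockout-labelled replicate 3. The ratio of Ppp1r3g to Ppp1r3b was 0.137, 0.00862 and 0.00847 in knockout-labelled and 0.0599, 0.0316 and 0.00513 in wild type replicates 1, 2 and 3 (exact permutation p 1, n = 3 each).

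**Figure D3:**
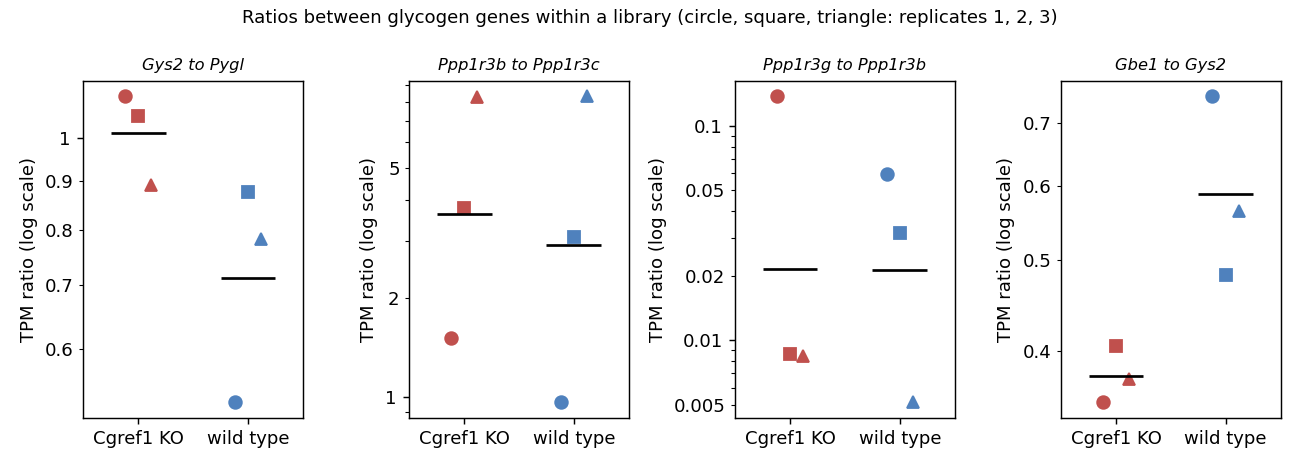
TPM ratios between pairs of glycogen genes (log scale) in each Cgref1 knockout-labelled and wild type library, with a line at each group's geometric mean. The Gys2 to Pygl and Gbe1 to Gys2 ratios, which both contain Gys2, do not overlap between the groups, whereas the ratios among Ppp1r3b, Ppp1r3c and Ppp1r3g do. The share of other gene pairs whose ratios separate in this way was not computed.

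The profiles of the 3 targeting-subunit genes over the 6 libraries were set against those of 8826 or 8827 genes with a mean of at least 5 CPM, by the root mean square difference of log2 CPM after each gene's mean was subtracted. The closest to Ppp1r3b was G6pc, the glucose 6-phosphatase gene, at 0.30, where the median gene stood at 1.02, and next came Tfrc, the transferrin receptor gene, at 0.37. G6pc had 83.1, 191 and 297 CPM in knockout-labelled and 75.3, 54.7 and 449 CPM in wild type replicates 1, 2 and 3, and so was highest in replicate 3 of each group, as Ppp1r3b was. Among the closest to Ppp1r3c was Insig1, which encodes a retention protein of sterol sensing, at 0.30, against a median of 0.65. Insig1 had 303, 197 and 210.5 CPM in knockout-labelled and 423, 177 and 218 CPM in wild type replicates 1, 2 and 3, with the highest and the lowest value in wild type, as for Ppp1r3c. For Ppp1r3g they were Trib3, a pseudokinase gene, at 0.38 and Cyp2b10, a cytochrome P450 gene, at 0.64, against a median of 1.02. Trib3 had 15.2, 2.44 and 2.97 CPM in knockout-labelled and 10.1, 5.79 and 3.38 CPM in wild type replicates 1, 2 and 3, with replicate 1 the highest of each group. Cyp2b10 had 16.3, 4.765 and 9.53 CPM in knockout-labelled and 29.0, 10.9 and 12.8 CPM in wild type replicates 1, 2 and 3. Replicate 1 was again the highest of each group. The highest library was wild type replicate 1 for Cyp2b10 but knockout-labelled replicate 1 for Ppp1r3g. These genes were picked as the nearest of all those candidates over 6 libraries, and their similarity is a description.

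**Figure D4:**
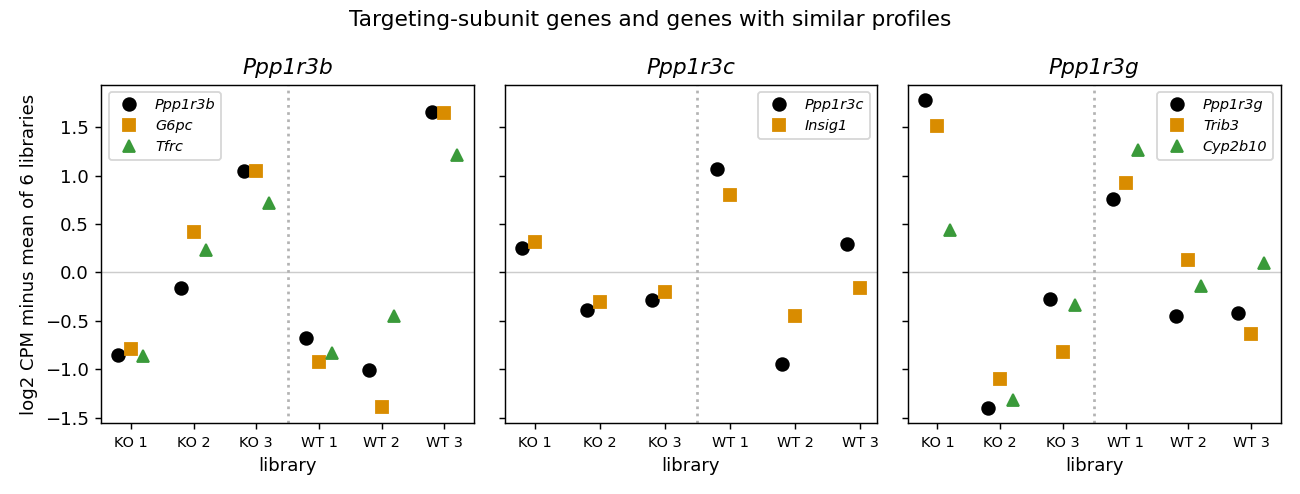
log2 CPM minus the mean of the 6 libraries for Ppp1r3b, Ppp1r3c and Ppp1r3g (black) and the named genes nearest to them in profile, in Cgref1 knockout-labelled (KO) and wild type (WT) libraries, 1 point per library. Ppp1r3b and G6pc are highest in replicate 3 of both groups, and Ppp1r3g and Trib3 in replicate 1 of both groups.

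Other genes of the pathway, and genes around it, were taken from 5 lists that hold 51 genes of the table, of which 47 were tested. In edgeR 0 of the 47 were called higher and 0 lower, 3 had an unadjusted p under 0.05, and DESeq2 and limma-voom called 0. Over all 12033 genes edgeR called 0.00831%, and 5.15% had an unadjusted p under 0.05, while DESeq2 called 28 genes and limma-voom 1. Positive log2 fold changes were found in 19 of the 47 and negative ones in 28, with a median of -0.02, where 50.5% of all tested genes were negative. Among the 3 with an unadjusted p under 0.05 were Pgm3 (log2 fold change 0.48, SE 0.13, edgeR adjusted p 0.85) and Ppp1cc (0.22, SE 0.09, edgeR adjusted p 0.928). Pgm3 was listed with the synthesis genes, although it is an amino sugar phosphate mutase gene and not one of a glycogen enzyme. Ppp1cc is a catalytic subunit gene of protein phosphatase 1.

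Among the genes listed as other synthesis and precursor genes, Pgm3 included, 4 of 9 tested had positive and 5 negative log2 fold changes. Here and for the lists below, levels are TPM means, while log2 fold changes are those of the edgeR fit on scaled counts. The fold changes are therefore not ratios of the TPM means beside them. On log2(TPM + 1) the median log2 fold change of all tested genes was -0.11. The phosphoglucomutase gene listed as Pgm2, which has Pgm1 among its other symbols, averaged 154 ± 20.5 TPM in knockout-labelled and 173 ± 7.22 TPM in wild type libraries (log2 fold change -0.03, and 0.02 without knockout-labelled replicate 3). The muscle synthase gene Gys1 averaged 0.783 ± 0.11 TPM in knockout-labelled and 0.657 ± 0.178 TPM in wild type libraries, far below Gys2 (log2 fold change 0.38, SE 0.27, and 0.25 without wild type replicate 2 or 0.61 without wild type replicate 3).

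Of 11 other breakdown genes tested, 4 had positive and 7 negative values. Calm2, one of the genes for calmodulin, which is a subunit of phosphorylase kinase and serves many other enzymes, averaged 132 ± 8.72 TPM in knockout-labelled and 167 ± 21.6 TPM in wild type libraries (SD, n = 3 each; log2 fold change -0.21, SE 0.11, and -0.10 without wild type replicate 1). The brain and muscle phosphorylase genes Pygb and Pygm, chosen after their values were seen as isoenzymes of Pygl, averaged 1.53 ± 0.0808 and 0.413 ± 0.0115 TPM in knockout-labelled and 1.70 ± 0.239 and 0.63 ± 0.0755 TPM in wild type libraries (SD, n = 3 each). In every library these were far below Pygl, which had at least 163 TPM.

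In the list of other targeting and phosphatase genes, 6 of 9 were tested, 2 with positive and 4 with negative values. Ppp1ca, another catalytic subunit gene of protein phosphatase 1, averaged 126 ± 16.7 TPM in knockout-labelled and 139.8 ± 9.33 TPM in wild type libraries (log2 fold change -0.02, and 0.04 without wild type replicate 1). Nhlrc1, which encodes the ubiquitin ligase malin, averaged 0.67 ± 0.14 TPM in knockout-labelled and 1.09 ± 0.427 TPM in wild type libraries (log2 fold change -0.55, SE 0.36, and -0.25 without wild type replicate 2). Kinases and receptors that act on glycogen enzymes had 7 positive and 9 negative values of 16 and none (0) at an unadjusted p under 0.05. The glucagon receptor gene Gcgr averaged 111 ± 11 TPM in knockout-labelled and 109.9 ± 10.6 TPM in wild type libraries (log2 fold change 0.14, SE 0.10, 0.22 without wild type replicate 2 and -0.01 without wild type replicates 1 and 3), and the protein kinase A regulatory subunit gene Prkar1a had -0.04 (SE 0.09), between -0.08 and -0.01 with knockout-labelled replicate 2 or 3 left out. The adrenergic receptor gene Adra1b had -0.19 (SE 0.14), which was -0.08 without wild type replicate 1 or knockout-labelled replicate 2 and -0.32 without knockout-labelled replicate 1.

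Entry and exit of glucose were represented by 5 genes, with 2 positive and 3 negative values and none (0) at an unadjusted p under 0.05. The glucose transporter gene Slc2a2 averaged 150.2 ± 19.3 TPM in knockout-labelled and 178 ± 6.56 TPM in wild type libraries (SD, n = 3 each; log2 fold change -0.11, SE 0.10). Its log2 fold change was -0.19 without knockout-labelled replicate 1, and -0.07 without wild type replicate 1 or knockout-labelled replicate 3. The glucose 6-phosphate transporter gene Slc37a4 averaged 135 ± 25.2 TPM and 121 ± 30.1 TPM in knockout-labelled and wild type libraries (log2 fold change 0.29, SE 0.19). That value was 0.11 without wild type replicate 1, 0.13 without knockout-labelled replicate 3 and 0.44 without wild type replicate 3. G6pc had a log2 fold change of -0.02 (SE 1.03), which turned positive without wild type replicate 3 (1.56) or knockout-labelled replicate 1 (0.34).

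**Figure D5:**
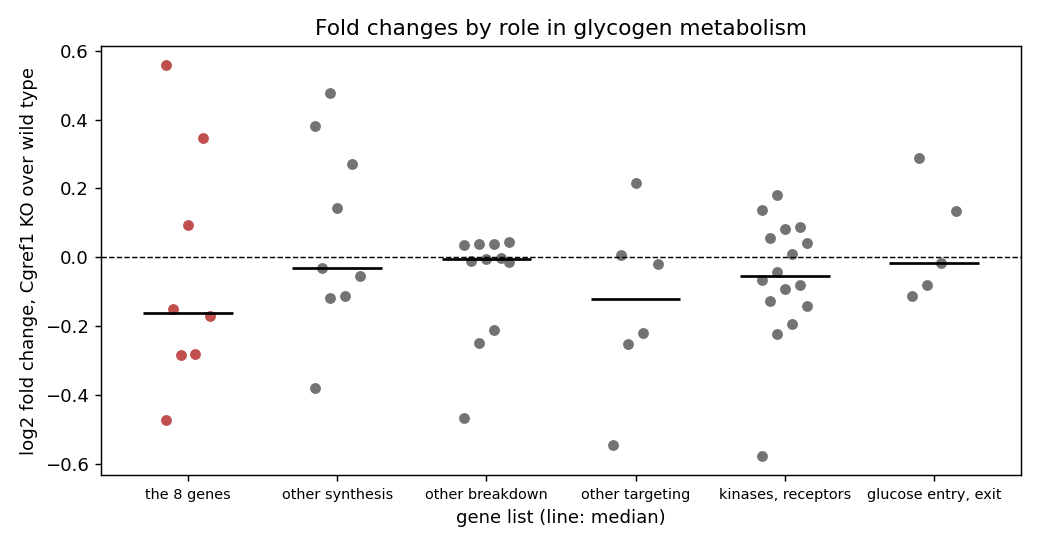
log2 fold changes, Cgref1 knockout-labelled over wild type libraries (edgeR), for the 8 glycogen genes (red) and the tested genes of the 5 other lists (grey), 1 point per gene, with a line at each list's median. No gene of these lists passed the adjusted threshold (0 of 8 and 0 of 47), and the list medians lie between -0.16 and -0.01.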

How the data were processed

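HISAT, Bowtie2, RSEM and DESeq2 are named in the submitters' processing notes, without versions, order or settings; the kit's strandedness and the genome build were not given in the sources used. The authors deposited expected counts, FPKM and TPM per gene and library, and a log2 fold change with a DESeq2 p-value and q-value, per the file headers. Chromosome accessions in the table are of GRCm38. Values of 6 group-mean and 9 single-library comparison columns (15 in all) were not used.

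Expected counts were rounded; edgeR 4.0.16 (R 4.3.3) kept genes by filterByExpr (minimum count 10), scaled by TMM and applied its robust quasi-likelihood test, knockout over wild type with no replicate block, with Benjamini-Hochberg adjustment over 12033 genes and a threshold of 0.05. Between 92.3% and 92.9% of deposited counts were whole. CPM uses the scaled library sizes. The alternatives were other scalings and filters, DESeq2 1.42.0, limma 3.58.1 (voom, and trend on log2 of TPM or FPKM with a pseudocount of 1, or of 0.1 for TPM), a replicate block and left-out libraries. The steps were run on simulated data with known fold changes. Their recovery is not given here, so the smallest change that these libraries could show is not stated. The 95% intervals are those of the edgeR fit and include the scatter between libraries, while coefficients of variation from counts cover counting error only. Named genes were the 8 members, for each other list the 2 with the smallest p and the 2 with the highest TPM, and the 2 most similar genes for the 3 most variable members; some of the genes so named are not reported here. The members and lists were chosen with earlier results of these data known.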

Additional observations from a re-analysis of the deposited data

How the results depend on the processing

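The count of called genes over the whole table, 1, was 0 with a mean of at least 5 CPM and without wild type replicates 1 and 3, 28 in DESeq2 and 34 with the replicate block, and 1 to 5 with 1 library left out (5 without knockout-labelled replicate 1). None of the 8 glycogen genes and none of the 47 others was called in any of the 18 alternatives run (0 in each). Under the replicate block the smallest adjusted p of the 8 was 0.407. The replicate numbers are not stated to pair samples. Deviations from group means correlated at 0.274, 0.0571 and 0.337 for equal numbers and at -0.291 to -0.00775 for unequal numbers. Deviations within a group sum to 0, so positive values for some pairs force negative ones for others. Whether the samples were paired was not tested. Directions of 14 of the 25 named genes held in all alternatives, those of Gys2, Gbe1, Ugp2 and Pygl among them. Gys2 ran from 0.15 to 0.46, Gbe1 from -0.42 to -0.21, Ugp2 from -0.30 to -0.04 and Pygl from -0.28 to -0.06. The cause of the changes that follow was not tested. Ppp1r3g could not be tested with a mean of at least 5 CPM.

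With 1 library left out the log2 fold changes ran from -0.98 to 1.07 for Ppp1r3b, -0.84 to 0.078 for Ppp1r3c, -0.83 to 1.08 for Ppp1r3g, -0.0173 to 0.16 for Phka2, -0.11 to 0.0207 for Pgm2, -0.10 to 0.0439 for Ppp1ca, -1.24 to 0.56 for Trib3, -0.49 to 1.56 for G6pc, -0.48 to 0.80 for Tfrc and -0.43 to 0.25 for Insig1. The median of the 8 genes ran from -0.21 to 0.000627. Ratio differences ran from -0.48 to 1.07 for Ppp1r3b to Ppp1r3c and from -1.32 to 0.76 for Ppp1r3g to Ppp1r3b.

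Without wild type replicates 1 and 3, where the lone wild type library is assumed to vary like the other group, the values that turned were the median of the 8 genes (0.0559), Phka2 (-0.0333), Ppp1r3b (1.23), Ppp1r3c (0.82), Pgm2 (0.0176), Ppp1ca (0.0397), Gcgr (-0.0102), G6pc (1.79), Tfrc (0.61) and Insig1 (0.40), along with the log2 ratio difference of Ppp1r3g to Ppp1r3b (-0.55, against 0.02 in all libraries). The ratio differences were 0.21 for Gys2 to Pygl and -0.36 for Gbe1 to Gys2, and Calm2 (-0.02) and Nhlrc1 (-0.999) were among the values that moved by over 1.5 times with the same sign. In limma-voom Ppp1r3b (0.0194), Trib3 (-0.28), G6pc (0.45) and Tfrc (0.0575) turned, and with the replicate block Ppp1r3b (0.0101), Trib3 (-0.16), G6pc (0.42) and Tfrc (0.0328). On log2(TPM + 1) those were Phka2 (-0.0454), Trib3 (-0.27) and G6pc (0.31), on log2(TPM + 0.1) Phka2 (-0.0515), Ppp1r3g (-0.0291), Trib3 (-0.40) and G6pc (0.32), and on log2(FPKM + 1) Trib3 (-0.20) and G6pc (0.36). The median of all genes was -0.11 and -0.13 on the TPM scales and -0.08 with library totals.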
